A study of Mus musculus with 6 samples.

Results

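Transcripts of 10 genes that make, bind, take up or esterify polyunsaturated fatty acids (PUFAs) were followed in whole mouse retina, namely the elongases Elovl2, Elovl4 and Elovl5, the desaturases Fads1 and Fads2, the adiponectin receptor Adipor1, the acyltransferase Agpat9, the fatty acid binding proteins Fabp5 and Fabp7, and the transporter Mfsd2a. The genes were chosen by name, with earlier results of these data known. All 10 had a row among the 15142 mRNA transcripts of the table, in 11 transcripts, since Elovl4 had a pair of isoforms. The libraries came from retinas of mice at postnatal day 21 (P21) labelled as strain C57BL/6 (C57Bl/6J in the study's methods), 3 of wild type (WT) and 3 of Nrl-/- mice. In the Nrl-/- mice the gene of NRL is lost in every cell and from the start of development. NRL is a leucine zipper protein needed for rods to form, and without it the outer retina holds cone-like photoreceptors. Each library was made from separately processed retinal RNA, so the p-values measure the spread between 3 mice per genotype, and in whole retina fewer cells of a type cannot be told apart from less RNA per cell.

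The retina, and above all the photoreceptor outer segment, is among the tissues richest in docosahexaenoic acid (DHA), the omega-3 PUFA at the end of the desaturation and elongation pathway. In that pathway dietary precursors are desaturated by the enzymes of Fads2 and Fads1, lengthened by those of Elovl5 and Elovl2, and shortened once in the peroxisome, while Elovl4 makes the very long chain PUFAs found in photoreceptor phospholipids. DHA made elsewhere, chiefly in the liver, enters from blood, and acyltransferases then place it in membrane lipids.

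Levels are FPKM (fragments per kilobase of transcript, scaled to the mapped reads of the library), computed back from the deposited log2(FPKM + 1) values, and differences are Nrl-/- less WT on that log2(FPKM + 1) scale, with the SE from limma. A transcript was called where the Benjamini-Hochberg adjusted p over all mRNA transcripts was under 0.05. The targeted gene Nrl (NM_001136074) stood at 500 to 583 FPKM in the WT libraries and at 0.879 to 0.959 FPKM in the Nrl-/- libraries. Libraries of a genotype correlated at 0.986 or more across transcripts and libraries of different genotypes at 0.929 to 0.933. All 5 rod markers of a fixed list were lower in Nrl-/- retina and all 6 cone markers were higher. The summed FPKM of the rod list was 4944 to 5506 in WT and 48.8 to 54.6 in Nrl-/- retina, and that of the cone list was 371 to 451 in WT and 5452 to 5610 in Nrl-/- retina. The part of these rod and cone differences in the results that follow was not tested.

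Of the 10 genes, 6 were higher in Nrl-/- retina (Fabp7, Agpat9, Elovl2, Elovl5, Mfsd2a and Fabp5), 2 were lower (Adipor1 and Elovl4) and 2 passed in neither direction (Fads1 and Fads2). Among all genes, each at its highest transcript, 28.3% were called higher and 10.2% lower. By transcript, 6 of 11 were called higher, where 26.7% of all mRNA transcripts were, and 3 of 11 were called lower, where 10.1% were. The 2 Elovl4 isoforms, which are not separate measurements, are both counted among the 11. The genotypes did not overlap for 9 of the 11 transcripts, against 49.1% of all mRNA transcripts (34.9% with all 3 Nrl-/- libraries above WT and 14.2% with all 3 below). The median difference of the 11 transcripts was 0.29, beside 0.08 over all mRNA transcripts. With each gene at its highest transcript it was 0.43, beside 0.09 over all genes. Since the genes were chosen with earlier results of these data known, these counts and medians are no test of the set. Of all the calls 72.7% were rises, a share that was 52.0% to 53.7% under the 4 other scalings of the libraries, and none of the 9 member calls was lost under these.

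**Figure D1:**
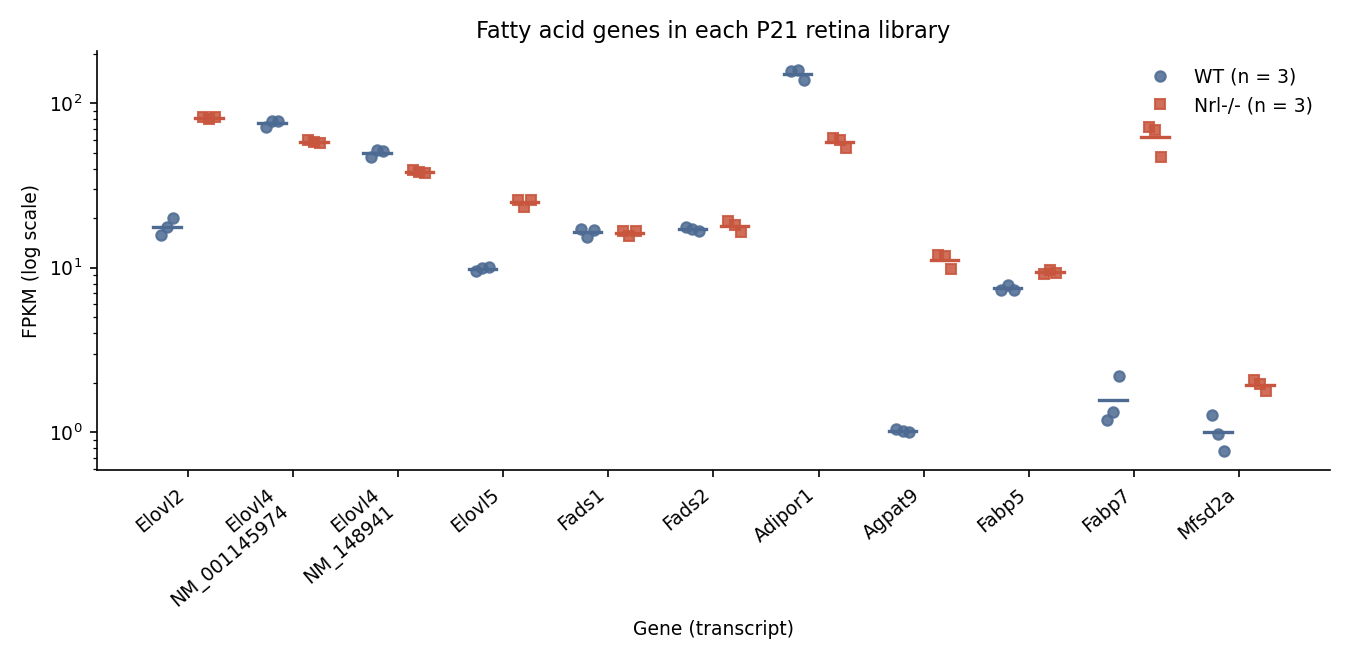
FPKM (log axis) of the 11 transcripts in each library, with WT as circles and Nrl-/- as squares (3 libraries each) and a line at the mean of each genotype. Fabp7 rises from 1.19 to 2.20 FPKM in WT to 46.8 to 72.0 FPKM in Nrl-/- retina, Adipor1 lies at 139 to 160 FPKM in WT and 53.6 to 61.2 FPKM in Nrl-/- retina, and the points of Fads1 and Fads2 overlap.

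The elongases moved in opposite directions. Elovl2 (NM_019423, minus strand of chromosome 13, 41277864 to 41315774 in NCBIM37) encodes the enzyme that lengthens the long PUFA intermediates that precede DHA. It stood at 15.8, 17.6 and 19.97 FPKM in WT libraries 1 to 3 and at 82.3, 80.0 and 82.3 FPKM in Nrl-/- libraries 1 to 3. The lowest Nrl-/- library lay far above the highest WT library, and the Nrl-/- libraries were closer to each other than the WT libraries were. The mean rose from 17.8 ± 2.09 to 81.5 ± 1.31 FPKM (SD, n = 3 each), a difference of 2.14 ± 0.08 (SE, limma adjusted p = 8.37e-08), and its rank among all mRNA transcripts went from 2294 in WT to 259 in Nrl-/- retina.

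Elovl5 (NM_134255, plus strand of chromosome 9, 77765171 to 77832326) encodes the elongase that acts before Elovl2, on the shorter PUFAs. Its levels were 9.56, 9.93 and 10.1 FPKM in WT and 25.7, 23.4 and 25.7 FPKM in Nrl-/- retina. The genotypes were far apart and each was tight. The mean rose 2.53 times, from 9.86 ± 0.27 to 24.96 ± 1.33 FPKM (SD, n = 3 each), a difference of 1.26 ± 0.06 (SE, limma adjusted p = 4.48e-07).

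Elovl4 encodes the elongase of very long chain fatty acids that is mutated in a dominant form of Stargardt-like macular dystrophy in humans, and it lies on the minus strand of the same chromosome (83672300 to 83699912), 5.84 Mb from Elovl5. Isoform NM_001145974 had 71.5, 78.3 and 77.8 FPKM in WT and 59.5, 58.3 and 57.1 FPKM in Nrl-/- retina. All 3 Nrl-/- libraries lay below all 3 WT libraries, but by much less than Elovl2 and Elovl5 lay above theirs. The mean fell from 75.9 ± 3.80 to 58.3 ± 1.23 FPKM (SD, n = 3 each), a difference of -0.37 ± 0.06 (SE, limma adjusted p = 8.09e-04). The second isoform, NM_148941, was 47.2 to 51.7 FPKM in WT and 37.6 to 39.2 FPKM in Nrl-/- retina. Since the isoforms differed by 0.59 on the log2(FPKM + 1) scale in each of the 6 libraries, they are not separate measurements, and Elovl4 counts as 1 gene that fell.

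The make-up of the elongase transcripts therefore differed between the genotypes. Elovl4, taken at its higher isoform, was 72.1% to 74.0% of the summed FPKM of the 3 elongases in WT and 34.6% to 36.0% in Nrl-/- retina. Elovl2 was 16.3% to 18.5% of that sum in WT and 49.1% to 49.8% in Nrl-/- retina. With the 2 Elovl4 isoforms summed, Elovl4 was 81.1% to 82.5% in WT and 46.7% to 48.3% in Nrl-/- retina, and Elovl2 11.0% to 12.5% and 39.8% to 40.6%. The share of Elovl2 was thus higher in Nrl-/- retina in both ways of counting, but it exceeded that of Elovl4 there only when the second Elovl4 isoform was left out. The authors' pooled TopHat values hold a single Elovl4 row, and there Elovl2 lay below Elovl4 in both genotypes. They were 19.4 against 129 FPKM in WT and 86.5 against 98.4 FPKM in Nrl-/- retina. The sum with Elovl4 at its higher isoform was 96.9 to 107.8 FPKM in WT and 161.7 to 167.6 FPKM in Nrl-/- retina. It leaves out the second Elovl4 isoform, at 47.2 to 51.7 FPKM in WT and 37.6 to 39.2 FPKM in Nrl-/- retina. Counting that isoform makes the relative rise of the sum smaller.

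**Figure D2:**
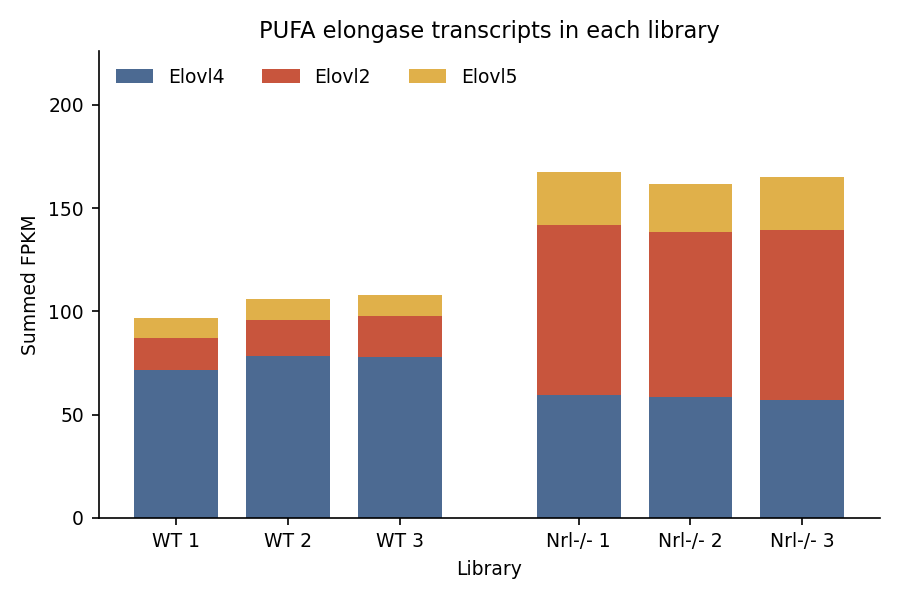
Stacked bars of the FPKM of Elovl4 (NM_001145974), Elovl2 and Elovl5 in each of the 6 libraries, starting at 0. Elovl4 at this isoform is the largest block in each WT bar and Elovl2 in each Nrl-/- bar, an order that turns in Nrl-/- retina when both Elovl4 isoforms are summed (94.7 to 98.8 FPKM, against 80.0 to 82.3 FPKM for Elovl2), and the bars reach 96.9 to 107.8 FPKM in WT and 161.7 to 167.6 FPKM in Nrl-/- retina.

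Ratios of genes within a library do not change when the library is scaled by a single factor, though quantile normalization can change them. The genotypes were compared in 7 ratios by exact two-sided permutation tests, for which 0.1 is the smallest p that 3 against 3 libraries allow. The ratios are made from the same gene levels as the differences above and below, and are no separate evidence. With Elovl4 at NM_001145974, the Elovl2 to Elovl4 ratio of FPKM was 0.221 to 0.257 in WT and 1.37 to 1.44 in Nrl-/- retina. With both Elovl4 isoforms summed it was 0.133 to 0.155 in WT and 0.827 to 0.869 in Nrl-/- retina, below 1 in both genotypes, and in the authors' pooled TopHat values it was 0.151 and 0.879. The Elovl5 to Elovl4 ratio, at the same isoform, was 0.127 to 0.134 in WT and 0.402 to 0.451 in Nrl-/- retina. The Elovl2 to Elovl5 ratio was 1.65 to 1.98 in WT and 3.20 to 3.42 in Nrl-/- retina. The genotypes did not overlap in any of the 3 ratios taken at that isoform, and each exact permutation p was 0.1 (0.117 adjusted over the 7 ratios), a design that cannot pass 0.05.

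The desaturases that work in the same pathway passed in neither direction. Fads2 encodes the delta-6 desaturase of the first and rate-limiting step and Fads1 the delta-5 desaturase, and both lie on chromosome 19, Fads2 on the minus strand (10138654 to 10175993) and Fads1 on the plus strand (10257378 to 10271360). Fads1 (NM_146094) had 17.3, 15.4 and 17.0 FPKM in WT and 16.6, 15.6 and 16.8 FPKM in Nrl-/- retina. Fads2 (NM_019699) had 17.8, 17.1 and 16.6 FPKM in WT and 19.1, 18.3 and 16.4 FPKM in Nrl-/- retina. The libraries of the genotypes overlapped for both genes.

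The difference of Fads1 was -0.02 ± 0.06 (SE, limma adjusted p = 0.832), with a 95% interval of -0.16 to 0.12. That of Fads2 was 0.06 ± 0.07 (SE, limma adjusted p = 0.549), with a 95% interval of -0.09 to 0.21, and its sign turned under the 4 other scalings. Both intervals leave out differences of the size seen for Elovl2 and Elovl5. The Fads1 to Fads2 ratio was 0.902 to 1.02 in WT and 0.851 to 1.02 in Nrl-/- retina (exact permutation p = 0.5).

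Adipor1 fell the most. It encodes a membrane receptor of adiponectin that retinal neurons need to hold their DHA, as loss of the gene in mice lowers retinal DHA and is followed by photoreceptor degeneration. Adipor1 (NM_028320, plus strand of chromosome 1, 136311955 to 136329928) had 157, 160 and 139 FPKM in WT and 61.2, 60.0 and 53.6 FPKM in Nrl-/- retina. It was the most abundant of the 11 transcripts in WT, at rank 91 of all mRNA transcripts, and fell to rank 438. The mean went from 152 ± 11.2 to 58.3 ± 4.12 FPKM (SD, n = 3 each), a WT level 2.61 times that of Nrl-/- retina and a difference of -1.37 ± 0.07 (SE, limma adjusted p = 1.11e-06).

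The related receptor Adipor2 did not pass, at 22.1 ± 2.04 FPKM in WT and 20.2 ± 1.33 FPKM in Nrl-/- retina (SD, n = 3 each), a difference of -0.12 ± 0.08 (SE, limma adjusted p = 0.257), although it was called lower with quantile normalization (adjusted p = 0.0428). The Adipor1 to Adipor2 ratio was 5.69 to 7.67 in WT and 2.84 to 2.94 in Nrl-/- retina, with no overlap (exact permutation p = 0.1). Of the 7 genes listed beside the receptor, Adipor2 among them, 5 had a row. Only Cdh13, which encodes T-cadherin, a receptor that binds adiponectin, was called among these 5, at 2.60 ± 0.29 FPKM in WT and 3.82 ± 0.28 FPKM in Nrl-/- retina (SD, n = 3 each; difference 0.42, limma adjusted p = 0.00445). Of all genes, taken by their highest transcript, 28.3% were called higher and 10.2% lower.

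Agpat9, now named Gpat3, encodes an enzyme that attaches an acyl chain to glycerol-3-phosphate, the first step of glycerolipid synthesis. Agpat9 (NM_172715, plus strand of chromosome 5, 101274732 to 101328121) had 1.04, 1.01 and 1.00 FPKM in WT and 11.9, 11.8 and 9.85 FPKM in Nrl-/- retina. In WT it lay near the 1 FPKM that a transcript had to reach in at least 1 library to be listed, and in Nrl-/- retina it lay above 70.2% of all mRNA transcripts. The mean rose 11.0 times, from 1.02 ± 0.02 to 11.2 ± 1.16 FPKM (SD, n = 3 each). The difference was 2.59 ± 0.08 (SE, limma adjusted p = 3.32e-08), which the added 1 makes smaller than the log2 of that ratio. A noncoding gene on the opposite strand, 4930458D05Rik, shares exonic positions with Agpat9 in NCBIM37, and the strand of the reads is not given in the sources used here.

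Other acyltransferases of glycerolipids and lysophospholipids did not move as a group. Of 17 listed, 15 had a row, 3 were higher, 2 were lower and 10 passed in neither direction, with a median difference of 0.10 beside 0.09 over all genes. The shares were 20% higher and 13.3% lower, beside 28.3% and 10.2% of all genes. Agpat3, whose enzyme acylates lysophosphatidic acid and accepts DHA, had 245, 240 and 225 FPKM in WT and 103, 102 and 83.4 FPKM in Nrl-/- retina. It fell by 1.30 on the log2 scale (SE 0.08, limma adjusted p = 3.62e-06). The Agpat9 to Agpat3 ratio of FPKM was 0.00423 to 0.00444 in WT and 0.116 to 0.118 in Nrl-/- retina, with no overlap (exact permutation p = 0.1). This ratio restates the called rise of Agpat9 and the called fall of Agpat3 and is no separate result. The called rises were smaller, at 0.63 for Mboat1, 0.51 for Lpcat2 and 0.39 for Mboat7, which encode enzymes that reacylate lysophospholipids.

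Fabp7 showed the largest difference of the 11 transcripts. It encodes the brain-type fatty acid binding protein, a small cytosolic protein that binds DHA with high affinity and is known from radial glia and astrocytes. Fabp7 (NM_021272, plus strand of chromosome 10, 57504687 to 57508256) had 1.19, 1.33 and 2.20 FPKM in WT and 72.0, 68.6 and 46.8 FPKM in Nrl-/- retina. WT library 3 was the highest of WT and Nrl-/- library 3 the lowest of Nrl-/- retina, and the genotypes stayed far apart. The mean rose from 1.57 ± 0.55 to 62.5 ± 13.6 FPKM (SD, n = 3 each), 39.7 times the WT mean, a difference of 4.62 ± 0.18 (SE, limma adjusted p = 1.25e-07). Its rank among all mRNA transcripts went from 13093 to 385.

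Fabp7 marks glia in the brain, and the study names it among genes known from cones, so the cone and glial lists stand beside it. The summed FPKM of the 6 cone markers was 371 to 451 in WT and 5452 to 5610 in Nrl-/- retina. All 7 Müller glia markers had a row. Of these, Apoe (0.55), Kcnj10 (0.42) and Slc1a3 (0.17) were called higher, and Glul, Rlbp1, Aqp4 and Dkk3 were not called. The shares were 42.9% higher and 0% lower, beside 28.3% and 10.2% of all genes. The summed FPKM of the 7 was 957 to 1036 in WT and 991 to 1090 in Nrl-/- retina. Glul weighs most in this sum, with a mean of 545 FPKM in WT and 530 FPKM in Nrl-/- retina, while Apoe had means of 136 and 199 FPKM. Of 3 astrocyte markers 2 had a row (Gfap and S100b), neither was called, and their sum was 11.1 to 25.6 FPKM in WT and 15.0 to 27.0 FPKM in Nrl-/- retina. The part of cones and glia in the rise of Fabp7, and in that of Elovl2, which is also expressed in glia, was not tested.

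Fabp5 encodes the epidermal-type fatty acid binding protein. Fabp5 (NM_010634, plus strand of chromosome 3, 10012548 to 10016607) had 7.34, 7.88 and 7.34 FPKM in WT and 9.20, 9.70 and 9.34 FPKM in Nrl-/- retina. The genotypes did not overlap, but the mean was only 1.25 times that of WT, at 7.52 ± 0.31 and 9.41 ± 0.26 FPKM (SD, n = 3 each), a difference of 0.29 ± 0.06 (SE, limma adjusted p = 0.00468). The value of Fabp5 is also uncertain because of copies of its sequence. Of the stretches of 31 bases of its transcript that occur in the NCBIM37 genome, 55.0% occur more than once, against at most 5.36% for any of the other 9 genes, so that reads from near-identical copies could be counted with it or lost from it.

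The Fabp7 to Fabp5 ratio was 0.162 to 0.300 in WT and 5.02 to 7.83 in Nrl-/- retina, with no overlap (exact permutation p = 0.1). Fabp5 was thus the more abundant of the pair in each WT library and Fabp7 in each Nrl-/- library. Of the 18 other genes listed for fatty acid uptake and binding, 12 had a row, 1 was called higher and 0 lower, with a median difference of 0.13. The shares were 8.33% higher and 0% lower, beside 28.3% and 10.2% of all genes. At an unadjusted p under 0.05 the count lower was 0 in the same fit, and by the ordinary linear model 0 were called lower, but 1 was called lower without WT library 2. The called gene was Slc27a3, an acyl-CoA synthetase of the fatty acid transport protein family, at 0.969 and 1.38 FPKM (limma adjusted p = 0.0455), and its call was lost in 12 of 18 alternatives, among them all 4 scalings.

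Mfsd2a encodes the sodium-dependent carrier that brings DHA as lysophosphatidylcholine across the endothelium of brain and retina and into the pigment epithelium. Mfsd2a (NM_029662, minus strand of chromosome 4, 122624093 to 122638431) had 1.27, 0.972 and 0.765 FPKM in WT and 2.07, 1.97 and 1.79 FPKM in Nrl-/- retina. Its mean was the lowest of the 11 transcripts in both genotypes, and the genotypes did not overlap. The mean was 1.94 times that of WT, at 1.00 ± 0.25 and 1.94 ± 0.14 FPKM (SD, n = 3 each), a difference of 0.56 ± 0.11 (SE, limma adjusted p = 0.00299). At this level the size of the log2 difference depends on the number added, and it was 0.92 with 0.1 in place of 1.

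Mfsd2a marks vessels and pigment epithelium. Of 6 endothelial markers, Tie1 was called higher (0.36) and the other 5 were not called, and the summed FPKM was 19.8 to 23.6 in WT and 19.1 to 23.0 in Nrl-/- retina. The endothelial shares were 16.7% higher and 0% lower, beside 28.3% and 10.2% of all genes. Of 7 pigment epithelium markers 6 had a row and none was called, although Tyrp1, which encodes a pigment enzyme, lay higher in all 3 Nrl-/- libraries, with a difference of 0.95 ± 0.34 (SE, limma adjusted p = 0.0521). The summed FPKM of the 6 varied from 9.96 to 74.9 among the WT libraries and from 26.5 to 43.1 in Nrl-/- retina. The lowest of these sums and the lowest Mfsd2a level were both in WT library 3, while the highest sum was in WT library 2 and the highest WT level of Mfsd2a in WT library 1. The part of these cells in the Mfsd2a difference was not tested. Without WT library 3 the difference was 0.48 and the limma adjusted p was 0.00697.

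**Figure D3:**
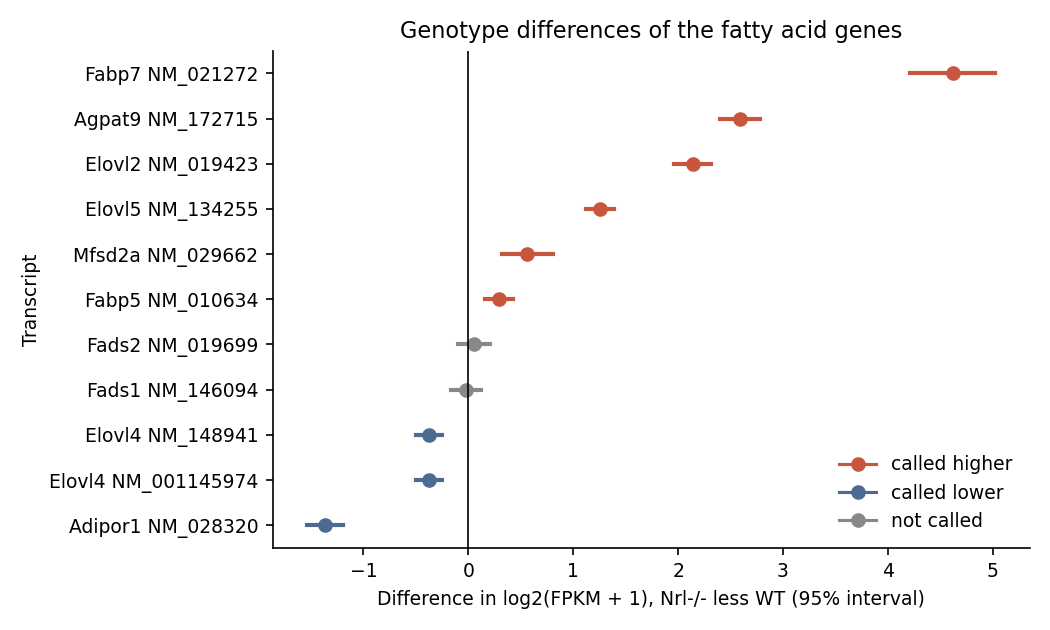
Difference in log2(FPKM + 1), Nrl-/- less WT, of each of the 11 transcripts (points) with its 95% interval (bars). The differences run from -1.37 for Adipor1 to 4.62 for Fabp7, and the intervals of Fads1 and Fads2 span 0.

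The 250 bases before the annotated start are shown for Fabp7, which rose the most, for Elovl5, the elongase whose window held the most matches, and for Adipor1, which fell. They are from RefSeq's gene starts on GRCm38.p6, where 8 of the 10 genes had 10 windows of this kind. Capitals mark matches, on either strand, to 5 motifs searched by their letters: TAATCC (core bound by CRX and OTX proteins), TGCTGA (short core for Maf-family factors such as NRL), CACGTG (E-box), CCAAT and TATAAA.
Fabp7 (chr10:57784673-57784922, plus strand): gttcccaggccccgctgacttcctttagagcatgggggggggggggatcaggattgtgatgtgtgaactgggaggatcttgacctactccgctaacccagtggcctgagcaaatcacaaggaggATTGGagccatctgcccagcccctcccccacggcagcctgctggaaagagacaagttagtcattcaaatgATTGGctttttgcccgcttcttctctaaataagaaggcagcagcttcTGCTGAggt
Elovl5 (chr9:77917115-77917364, plus strand): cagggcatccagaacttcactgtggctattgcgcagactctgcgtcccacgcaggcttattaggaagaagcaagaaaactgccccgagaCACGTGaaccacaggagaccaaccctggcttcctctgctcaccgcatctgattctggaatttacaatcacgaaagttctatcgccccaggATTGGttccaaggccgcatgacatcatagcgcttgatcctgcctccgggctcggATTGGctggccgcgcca
Adipor1 (chr1:134415128-134415377, plus strand): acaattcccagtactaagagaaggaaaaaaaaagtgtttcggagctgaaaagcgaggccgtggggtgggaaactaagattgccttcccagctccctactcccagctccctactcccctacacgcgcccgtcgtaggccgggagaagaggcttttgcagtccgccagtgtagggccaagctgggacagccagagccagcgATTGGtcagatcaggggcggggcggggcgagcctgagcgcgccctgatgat

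In the Fabp7 window CCAAT matched 2 times, both as ATTGG, and TGCTGA matched 1 time, 9 bases before the start. The Elovl5 window held CACGTG 1 time and CCAAT 2 times, and the Mfsd2a window and the printed Adipor1 window held CCAAT 1 time each, while the other Adipor1 window (chr1:134415414-134415663) held no match. No window of these genes held TAATCC or TATAAA, and both windows of Elovl2 and those of Elovl4, Fads2 and Agpat9 held no match to the 5 motifs. Of 32851 windows of all genes, 33.8% held CCAAT, 16.1% TGCTGA, 12.4% TATAAA, 6.25% TAATCC and 6.02% CACGTG. A match is a description of the letters and no evidence of binding. The Fabp7 window had 4 CG pairs and the Elovl2 window at the outer start had 49, where the median of all windows was 6.

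The other enzymes of fatty acid elongation were called in 1 direction. Of 11 listed genes of the cycle and other elongases, 9 had a row, 6 were called higher and 0 lower. The shares were 66.7% higher and 0% lower, beside 28.3% and 10.2% of all genes. The median difference was 0.27 beside 0.09 over all genes. But 3 rather than 6 were called under each of the 4 other scalings, with an ordinary linear model, and without Nrl-/- library 1 or 2. Elovl7, an elongase of very long chains, rose from 1.15 ± 0.09 to 5.30 ± 0.84 FPKM (SD, n = 3 each; difference 1.54, limma adjusted p = 3.82e-06). Elovl6, the elongase of palmitate, rose from 13.3 ± 0.67 to 28.4 ± 2.44 FPKM (SD, n = 3 each; difference 1.04, limma adjusted p = 5.45e-06). Hsd17b12, a reductase of the cycle, also rose (difference 0.53 ± 0.07 (SE), limma adjusted p = 3.49e-04). Ptpla, a dehydratase of the cycle, had a difference of 0.39 (limma adjusted p = 0.0214), and that call was lost in 9 of 18 alternatives. At an unadjusted p under 0.05 the count lower was 0, and it was 0 under every alternative run.

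For the other desaturases the calls were falls. Of 8 listed, 7 had a row, 0 were called higher and 3 lower, with a median difference of -0.16. The shares were 0% higher and 42.9% lower, beside 28.3% and 10.2% of all genes. At an unadjusted p under 0.05 the count higher was 0, with 0 called higher under every alternative run. Scd2, the stearoyl-CoA desaturase of neural tissue, was at 65.4 ± 4.90 FPKM in WT and 55.8 ± 2.16 FPKM in Nrl-/- retina, a difference of -0.22 (limma adjusted p = 0.0252). Scd1 (-0.52) and Fads6 (-0.30) were the other falls. With an ordinary linear model 0 of the 7 were called lower, and 1 without each Nrl-/- library in turn. Acyl-CoA synthetases, which activate fatty acids, had 5 of 7 listed genes with a row and only Acsl3 called, at 30.7 ± 5.27 and 39.7 ± 1.08 FPKM (limma adjusted p = 0.0197; SD, n = 3 each), a call lost under all 4 other scalings, under which 2 of the 5 were called lower. The synthetase shares were 20% higher and 0% lower, beside the same 28.3% and 10.2% of all genes.

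In the peroxisomal steps, which shorten the last intermediate to DHA, 12 of 14 listed genes had a row, 6 were called higher and 2 lower, with a median difference of 0.16. The shares were 50% higher and 16.7% lower, beside 28.3% and 10.2% of all genes. Crot, the carnitine transferase that exports shortened acyl chains from peroxisomes, had 11.4, 13.7 and 11.9 FPKM in WT and 58.7, 55.1 and 46.5 FPKM in Nrl-/- retina. Its difference was 2.03 ± 0.10 (SE, limma adjusted p = 4.46e-07), and no other gene of this list differed by more than 0.55. Scp2, a thiolase and sterol carrier (0.55), and Hsd17b4, the bifunctional enzyme of the DHA step (0.51), also rose. Acox3, an oxidase of branched acyl chains, and Amacr, a racemase for branched chains, each fell by 0.48.

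**Figure D4:**
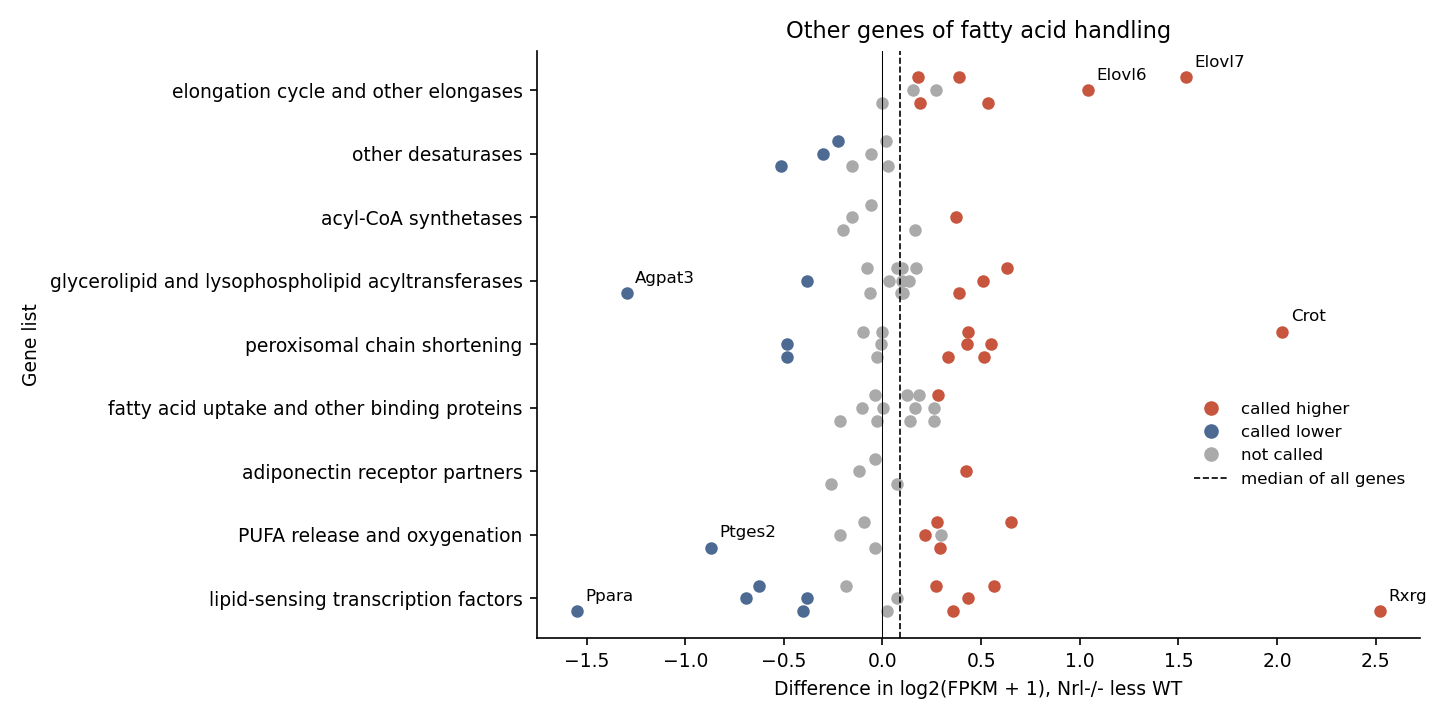
Difference in log2(FPKM + 1), Nrl-/- less WT, of each gene of 9 lists of fatty acid handling (1 point per gene, rows are lists, vertical position within a row has no meaning), coloured by call, with a dashed line at the median of all genes (0.09). The points farthest from 0 are Rxrg at 2.52, Crot at 2.03, Elovl7 at 1.54, Ppara at -1.55 and Agpat3 at -1.30.

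Lipid-sensing transcription factors and their regulators were called in both directions. Of 14 listed, 13 had a row, 5 were called higher and 5 lower, with a median difference of 0.02. The shares were 38.5% higher and 38.5% lower, beside 28.3% and 10.2% of all genes. Of the calls in this list, Scap (0.57), Insig2 (0.27) and Insig1 (-0.40) belong to membrane proteins of the endoplasmic reticulum that control SREBP and are not transcription factors. The Insig2 call was lost in 9 of 19 alternatives, among them all 4 other scalings, and the Insig1 call in 2 of 19. Rxrg, the retinoid X receptor of cones, had 1.57, 1.23 and 1.73 FPKM in WT and 14.9, 11.4 and 14.0 FPKM in Nrl-/- retina (difference 2.52, limma adjusted p = 2.53e-07). Ppara, the fatty acid receptor that drives oxidation genes, had 4.24, 3.92 and 4.39 FPKM in WT and 0.717, 0.828 and 0.778 FPKM in Nrl-/- retina (difference -1.55, limma adjusted p = 6.29e-07). Neither gene overlapped between the genotypes. Ppard (-0.69) and Srebf1 (-0.63), the latter a driver of fatty acid synthesis, were lower. The count of rises was 2 with an ordinary linear model and 3 without WT library 2 or Nrl-/- library 1 or 2, and the count of falls was 3 with the ordinary linear model. Under each of the 4 other scalings 4 were called higher and 5 lower.

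The same libraries were also quantified by the authors from TopHat alignments on Ensembl transcripts, as a single pooled FPKM per genotype, for which no error can be given. All 10 genes had rows there, 16 in all. The authors' pooled values for the highest row of each gene were 1.76 in WT and 73.7 in Nrl-/- retina for Fabp7, 1.47 and 12.5 for Agpat9, and 19.4 and 86.5 for Elovl2. They were 10.3 and 24.9 for Elovl5, 129 and 98.4 for Elovl4, and 110 and 42.9 for Adipor1. For Fads1 they were 18.1 and 17.4, for Fads2 26.9 and 27.8, for Fabp5 10.8 and 14.1, and for Mfsd2a 1.36 and 2.73. Where a gene had further rows they moved in the direction of the first, except for Fabp5, where the further row was at 2.01 in WT and 1.89 in Nrl-/- retina.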

How the data were processed

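The 6 retinal libraries were TruSeq mRNA libraries sequenced by the authors as 70-base single reads. The log2 values used here are log2(FPKM + 1) per RefSeq transcript and library, which the authors made from BWA alignments to mm9 in Partek, kept only where 1 or more libraries reached an FPKM of 1, and deposited with 2 decimals. The deposited FPKM of the TopHat and Cufflinks workflow are 1 pooled value per genotype. Columns with the authors' own fold changes and p-values were not used. The files hold no read counts, so counting error and depth are unknown.

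Differences were estimated in limma 3.58.1 (R 4.3.3) with genotype as the only term, a trend in the prior variance, two-sided tests and Benjamini-Hochberg adjustment over 15142 transcripts. FPKM were computed back from the log2 values. In lists, a gene is represented by its transcript with the highest mean FPKM, and up to 4 called genes with the largest differences are named. Adipor2, Amacr, Pla2g15, Scap, Insig1 and Insig2 were named outside this rule, after their values were seen. The member genes and lists were chosen with earlier results of these data known. Positions are from GENCODE on NCBIM37, and repeats of 31-base words were counted in that genome. The fit was tested on simulated data. Alternatives were 2 pseudocounts, 2 filters, 3 variance models, 4 scalings (median-of-ratios, upper-quartile, quantile and without the 25 highest transcripts), a replicate block, sums per gene symbol and leaving out each library. Python 3.11.15, pandas 2.3.3, scipy 1.17.1 and matplotlib 3.10.9 were used.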

Additional observations from a re-analysis of the deposited data

How the results depend on the processing

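None of the 9 called member transcripts lost its call, and neither Fads1 nor Fads2 gained one, in any of the 19 alternatives in which they were tested. Mfsd2a had no value with an FPKM of at least 5 in 1 library, which it did not reach. The values that turned were those of Fads2, at -0.0446 with median-of-ratios scaling, -0.0445 with upper-quartile scaling, -0.0611 with quantile normalization and -0.0383 without the 25 highest transcripts, and those of Fads1, which ran from -0.0667 to 0.0117 when 1 library was left out. Fads1 was farther below 0 under the scalings, at -0.121 with median-of-ratios scaling, -0.121 with upper-quartile scaling, -0.144 with quantile normalization and -0.115 without the 25 highest transcripts, with adjusted p of 0.107 to 0.199. Fabp5 was the called member nearest to the threshold, with a difference of 0.194 and an adjusted p of 0.0385 with median-of-ratios scaling. Over all transcripts, the count called higher went from 4047 to 2463 with median-of-ratios scaling, 2466 with upper-quartile scaling, 2451 with quantile normalization and 2563 without the 25 highest transcripts, and that called lower from 1522 to between 2214 and 2275. These scalings shifted the median difference of all transcripts by -0.0817 to -0.0873. Leaving out 1 library gave 2784 to 4180 transcripts called higher and 1122 to 1578 called lower. With a replicate block 6 member transcripts were called higher and 3 lower, as without it, and 3973 and 1520 of all transcripts. Deviations from the genotype means of same-numbered libraries correlated at 0.0286, 0.0237 and 0.124, so the numbers were not taken as pairs. Differences of transcripts near 1 FPKM grew with a pseudocount of 0.1, to 0.915 for Mfsd2a, 3.33 for Agpat9 and 5.25 for Fabp7. Of the 32 named genes of other lists, 12 lost their call in at least 1 alternative, 1 gained a call and 0 turned. Without read counts, the share of counting error in the spread of low transcripts is not known.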

Other observations

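Enzymes that free PUFAs from membranes and oxygenate them were a further list. Of 15 listed, 9 had a row, 4 were called higher and 1 lower, with a median difference of 0.21. The shares were 44.4% higher and 11.1% lower, beside 28.3% and 10.2% of all genes. Ephx2, the soluble epoxide hydrolase that opens PUFA epoxides, had 4.90, 5.15 and 5.06 FPKM in WT and 8.38, 8.65 and 8.38 FPKM in Nrl-/- retina, a difference of 0.65 ± 0.06 (SE, limma adjusted p = 3.21e-05). Ptges2, named as a prostaglandin E synthase, was at 12.7 ± 0.84 FPKM in WT and 6.49 ± 0.49 FPKM in Nrl-/- retina (SD, n = 3 each), a difference of -0.87 ± 0.07 (SE, limma adjusted p = 2.17e-05). Neither gene overlapped between the genotypes. The smaller differences of the phospholipases Pla2g5 (0.29) and Pla2g15 (0.21) and of Ptges3 (0.28) were called as well, but the count of rises in this list was 1 under each of the 4 other scalings, with an ordinary linear model and without Nrl-/- library 1 or 2, and 2 without WT library 2.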
